A study of Mus musculus with 13 samples.

Results

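Transforming growth factor beta (TGF-beta) signalling was followed through 10 of its genes in mouse glioblastomas: the ligands Tgfb1, Tgfb2 and Tgfb3, the latency proteins Ltbp1 and Ltbp2, the receptors Tgfbr1 and Tgfbr2, the transducer Smad3, the inhibitor Smad7 and the induced matrix gene Tgfbi. They were taken by symbol from the 55416 genes of the raw count table through GENCODE M21, and all 10 were found. Compared were 5 PDGFB tumors with 5 RAS tumors, and each of these with 3 samples of normal brain. Both kinds of tumor were started in the motor cortex with a lentivirus that carried an shRNA against p53 together with either PDGFB or HRasV12. The hosts were CNP-Cre mice, in which the Cnp locus drives Cre in oligodendrocytes. GFP+ tumor tissue was taken at the clinical endpoint from 5 mice per group, with the genotypes given as PDGFB-shP53 and HrasV12-shp53. The normal samples were labelled normal brain tissue, genotype WT, and the protocol describes normal tissue trimmed from around GFP+ tumor. Whether these samples came from the tumor mice or from separate animals was not stated. Polyadenylated RNA of whole tissue was counted, so a difference in a gene cannot be assigned to fewer cells of a type or to less RNA per cell.

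TGF-beta ligands are secreted in a latent complex with their own propeptide, which latent TGF-beta binding proteins (LTBPs) tether to the extracellular matrix until proteases, integrins or matrix proteins release them. A released ligand brings the type II receptor Tgfbr2 together with the type I receptor Tgfbr1, which phosphorylates Smad2 and Smad3. These join Smad4 and enter the nucleus to change transcription. Smad7 is induced by the pathway and blocks the receptors, and Tgfbi encodes a secreted matrix protein named for its induction by TGF-beta. In brain tumors the pathway is known both from tumor cells and from macrophages, vessels and other stroma.

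RAS tumors stood apart from the other groups. Tgfb1, Ltbp1 and Tgfbi were 10.5- to 15.7-fold lower in PDGFB tumors than in RAS tumors by the fit. At equal depth (summed reads divided by the gene reads of the group) they were 22.9 to 83.8 times as high in RAS tumors as in normal brain, where the fit gave 18.7- to 59.8-fold. These ratios rest on 2, 2 and 1 reads in normal brain, all in normal brain 1, with 95% counting intervals of 6.14 to 192, 11.5 to 352 and 14.8 to 3332. No PDGFB tumor or normal brain reached the lowest RAS tumor for any of these genes. Of all genes tested, 52.1% had no overlap between RAS tumors and normal brain, and 20.3% had none between the tumors. Tgfb2, a ligand, had the opposite pattern, with 29 reads over the PDGFB tumors, 2 over the RAS tumors and 11 over normal brain. In PDGFB tumors edgeR called none of the 10 genes different from normal brain, nor did DESeq2. At an unadjusted p under 0.05 the count was 0 with the low-count filter, which 4 of them passed, and 1 (Tgfbi) without it. Of all genes, edgeR called 45.3% in this comparison with the filter and 18.1% without it. The counts were low throughout: the 10 genes held 848 reads over all 13 libraries, and only 4 of them (Tgfb1, Ltbp1, Smad3 and Tgfbi) passed the low-count filter. Tgfb1, Ltbp1 and Tgfbi passed it through the RAS tumors alone, so a difference was built into their passing.

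Few of the reads of a library were assigned to genes. Of the 13952738 to 15607754 reads of a library, 84.5% to 87.3% fell in no counted gene and 529162 to 643055 were assigned to genes. Levels are given as CPM, reads scaled to the gene reads of the library, and 1 read was worth 1.56 to 1.89 CPM. Genes whose exons face those of another gene were 17.1% of all genes and held 84.8% of the gene reads. The strand setting of the count was not stated and the kit named does not settle it, so reads of a gene and of its opposite partner cannot be told apart. Nor do the sources show that the strand counted is the gene's own, which bears on what every value here measures, also for the 7 of the 10 genes that had no gene opposite them. RAS tumor 2 lay apart from the other RAS tumors on the first principal component (−11.2, against −53.3 to −71.4) and near the lowest PDGFB tumor (−10.7). The tests of the 10 genes and of the genes opposite them were recomputed without it. Values of the other genes named below are given only with it included. The 5 of 10 neuron markers with no gene opposite summed to 268 CPM in that tumor, against 4.91 to 32.7 CPM in the other RAS tumors. Over all 10 markers it was the lowest RAS tumor, at 4054 CPM against 4055 to 8522 CPM. Of the genes the viruses addressed, Trp53 had 1 to 2 reads per PDGFB tumor, 0 to 5 per RAS tumor and 0 to 4 per normal brain, too few to see a knockdown. Pdgfb had 4 to 21 reads per PDGFB tumor, 1 to 4 per RAS tumor and 3 to 6 per normal brain, and Hras had 4 to 16, 9 to 25 and 16 to 19 reads in the same order of groups, so Hras did not mark the RAS tumors. Whether transgene reads can be counted under the mouse genes was not stated.

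The promoters of 4 genes are shown. Tgfb1, Ltbp1 and Tgfbi passed the filter and their RAS tumor libraries overlapped no other, while Tgfb2 had the opposite direction although its groups overlapped. The RAS tumor libraries of Tgfbr2, a gene under the filter, also overlapped no other, and its window is not printed. RefSeq (GRCm38.p6) gave a promoter for 8 of the 10 genes; Tgfb3 and Smad7 were not matched. Each run is the 250 bases before a start site, written 5′ to 3′ on the gene's own strand. The windows are chr7:25686752-25687001 on the plus strand for Tgfb1, chr17:75005279-75005528 on the plus strand for Ltbp1, chr13:56609336-56609585 on the plus strand for Tgfbi and chr1:186705990-186706239 on the minus strand for Tgfb2. Capitals mark the letters of 3 motifs searched on both strands: the SMAD box CAGAC, which reads as GTCTG from the other strand, the cAMP response element core TGACGT, which reads as ACGTCA from the other strand, and the AP-1 site TGANTCA, which reads alike from both.
Tgfb1: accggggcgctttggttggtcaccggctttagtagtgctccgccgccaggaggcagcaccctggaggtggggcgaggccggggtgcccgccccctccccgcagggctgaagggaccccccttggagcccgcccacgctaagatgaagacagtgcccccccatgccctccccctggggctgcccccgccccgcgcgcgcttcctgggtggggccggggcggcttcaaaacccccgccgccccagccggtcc
Ltbp1: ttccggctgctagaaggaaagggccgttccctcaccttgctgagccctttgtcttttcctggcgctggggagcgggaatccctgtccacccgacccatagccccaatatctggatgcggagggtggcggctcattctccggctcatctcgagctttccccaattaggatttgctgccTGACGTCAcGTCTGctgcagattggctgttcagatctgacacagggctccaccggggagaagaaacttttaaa
Tgfbi: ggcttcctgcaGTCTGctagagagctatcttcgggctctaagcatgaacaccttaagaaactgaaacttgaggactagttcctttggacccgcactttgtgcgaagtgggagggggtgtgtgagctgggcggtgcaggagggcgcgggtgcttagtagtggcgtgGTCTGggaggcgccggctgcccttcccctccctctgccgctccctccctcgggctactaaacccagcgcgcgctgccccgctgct
Tgfb2: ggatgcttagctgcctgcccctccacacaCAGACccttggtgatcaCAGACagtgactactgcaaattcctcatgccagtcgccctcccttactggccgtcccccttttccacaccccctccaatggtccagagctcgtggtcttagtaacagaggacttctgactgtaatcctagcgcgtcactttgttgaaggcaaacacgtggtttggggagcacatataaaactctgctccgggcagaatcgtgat
The table holds another Ltbp1 window, chr17:75178531-75178780, which had 2 SMAD boxes and no response element core and is not printed. The Ltbp1 window shown, the first of the table, held the response element core on both strands in overlapping letters, at −73 to −68 and −71 to −66 from the start, and a SMAD box at −64 to −60. The Tgfbi window held SMAD boxes at −239 to −235 and −85 to −81, and the Tgfb2 window at −221 to −217 and −204 to −200. The Tgfbr2 window held 1 at −160 to −156. None of the 3 motifs was in the Tgfb1 window, and the AP-1 letters were in none of the windows of the 8 genes. Among all 32851 promoter windows of the table, 42.2% held a SMAD box, 6.5% the response element core and 6.7% the AP-1 letters, so that a SMAD box is common and each match is a description of letters, not of a bound site.

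Ligands. Tgfb1 (ENSMUSG00000002603, GRCm38 chr7:25687002-25705077, plus strand) encodes the most widely expressed of the 3 ligands. It had 1, 3, 1, 0 and 3 reads in PDGFB tumors 1 to 5, then 20, 5, 17, 13 and 27 in RAS tumors 1 to 5, against 2, 0 and 0 in normal brain 1 to 3. The lowest RAS tumor, number 2, still had more reads than any PDGFB tumor or normal brain. Tgfb1 averaged 26.5 ± 12.8 CPM in RAS tumors (SD, n = 5) and 1.14 ± 1.97 CPM in normal brain (SD, n = 3), a count ratio of 22.9 (95% counting interval 6.14 to 192). Here and below, a count ratio is that of summed reads after division by the gene reads of each group. The fit gave a log2 fold change of 4.23 ± 0.88 (SE) and an adjusted p of 5.91e-04. In PDGFB tumors it averaged 2.62 ± 2.22 CPM (SD, n = 5), 10.5-fold lower than in RAS tumors (log2 fold change −3.39 ± 0.61, adjusted p = 4.85e-04). PDGFB tumors overlapped normal brain, with a log2 fold change of 0.83 ± 1.19 and an adjusted p of 0.596.

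Tgfb2 (ENSMUSG00000039239, chr1:186622792-186705989, minus strand) encodes a ligand that glia and neurons are known to make. Its reads were 7, 11, 0, 3 and 8 in PDGFB tumors, 0, 0, 2, 0 and 0 in RAS tumors, and 1, 4 and 6 in normal brain. In RAS tumors 4 of 5 libraries had no read, while 1 PDGFB tumor also had none, so the groups overlapped. Tgfb2 did not pass the filter, and it was tested in a fit without a low-count filter over the 23301 genes with at least 1 read, which serves here for all 6 genes under the filter. There, Tgfb2 fell in RAS tumors relative to normal brain by 2.98 on the log2 scale (SE 1.0, adjusted p = 0.0150; a count ratio of 9.84 in favour of normal brain, interval 2.15 to 91.4), and this call was lost without normal brain 2 (adjusted p = 0.0514) or normal brain 3 (adjusted p = 0.140). PDGFB tumors had a count ratio of 14.6 over RAS tumors (interval 3.68 to 126), with a log2 fold change of 3.41 ± 0.86 and an adjusted p of 0.00122. Against normal brain the PDGFB tumors gave 0.43 ± 0.72 (adjusted p = 0.739).

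Tgfb3 (ENSMUSG00000021253, chr12:86056745-86079041, minus strand), the third ligand, had 1, 4, 1, 0 and 1 reads in PDGFB tumors, 10, 5, 3, 6 and 12 in RAS tumors, and 2, 0 and 1 in normal brain. All 5 RAS tumors lay above all 3 normal brains, and PDGFB tumor 2 overlapped the lowest RAS tumor. In the unfiltered fit the log2 fold change was 2.57 ± 0.88 in RAS tumors against normal brain (adjusted p = 0.0168, lost without normal brain 2 at 0.108 or 3 at 0.0646). In PDGFB tumors it was −2.32 ± 0.68 against RAS tumors (adjusted p = 0.00762) and 0.26 ± 1.06 against normal brain (adjusted p = 0.944). Tgfb3 shares bases with reads-rich genes on the other strand, whose values are given further on.

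**Figure D1:**
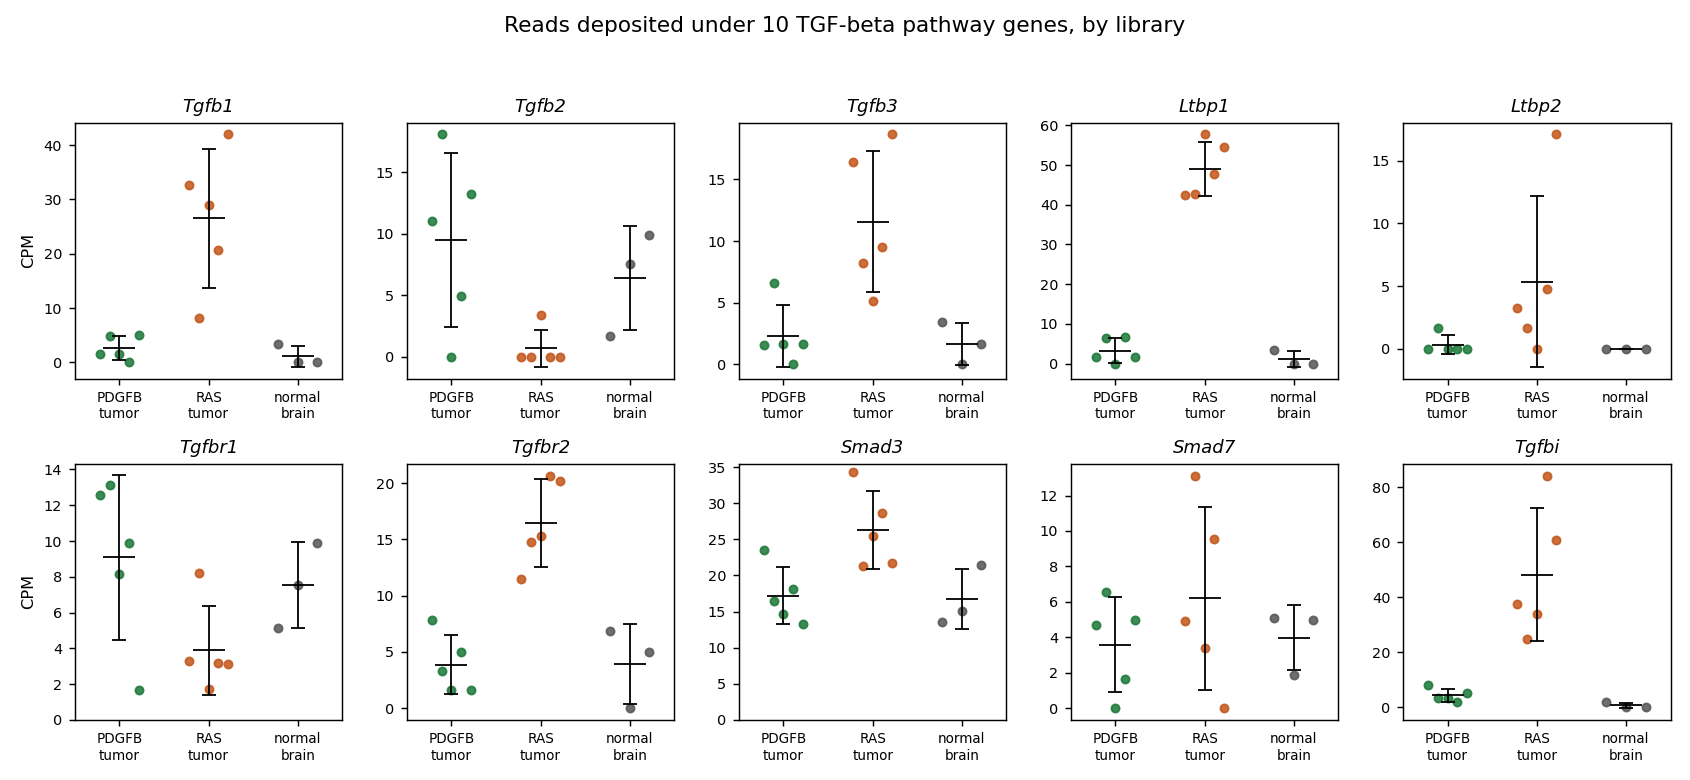
CPM of each of the 10 genes (y axis, 1 linear scale per panel) in PDGFB tumors, RAS tumors and normal brain (x axis); each point is a library, in replicate order from left to right, and the bars are the mean ± SD (n = 5, 5 and 3). For Tgfb1, Ltbp1, Tgfbr2 and Tgfbi all RAS tumors lie above all other libraries, while for Tgfb2 4 of 5 RAS tumors lie at 0.

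Latency proteins. Ltbp1 (ENSMUSG00000001870, chr17:75005568-75392512, plus strand) binds the latent ligand and fixes it to the matrix. It had 1, 4, 0, 4 and 1 reads in PDGFB tumors, 26, 26, 34, 30 and 35 in RAS tumors, and 2, 0 and 0 in normal brain. Of the 10 genes it was the most even among RAS tumors, where RAS tumor 2 had as many reads as RAS tumor 1. Ltbp1 averaged 49.0 ± 6.88 CPM in RAS tumors (SD, n = 5) and 1.14 ± 1.97 CPM in normal brain (SD, n = 3), a count ratio of 42.2 (interval 11.5 to 352) and a log2 fold change of 5.10 ± 0.71 (adjusted p = 1.60e-05). PDGFB tumors, at 3.28 ± 3.09 CPM (SD, n = 5), were 15.7-fold lower than RAS tumors (log2 fold change −3.97 ± 0.48, adjusted p = 1.19e-05) and overlapped normal brain (1.13 ± 1.01, adjusted p = 0.382).

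Ltbp2 (ENSMUSG00000002020, chr12:84783212-84876532, minus strand), a relative found on microfibrils that does not itself hold the latent ligand, had 0, 1, 0, 0 and 0 reads in PDGFB tumors, 2, 1, 0, 3 and 11 in RAS tumors, and none in normal brain. RAS tumor 5 held 11 of the 17 reads in RAS tumors, and RAS tumor 3 had none, as in normal brain. With 3 reads as the most that 0 in the normal group allows, RAS tumors were at least 3.17-fold higher than normal brain (adjusted p = 0.0162 in the unfiltered fit), and PDGFB tumors, with 1 read, were lower than RAS tumors, with a count ratio of 16.9 in favour of RAS tumors (interval 2.65 to 708; adjusted p = 0.0161). Both calls were lost without RAS tumor 5, with adjusted p of 0.142 and 0.277, and in DESeq2 (0.0968 and 0.0901). The call against normal brain was also lost without normal brain 1 (0.0647), 2 (0.0585) or 3 (0.0676). With the replicate number as a block the call between the tumors was lost too (0.134).

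Receptors. Tgfbr1 (ENSMUSG00000007613, chr4:47353222-47414931, plus strand), the type I receptor kinase, had 8, 8, 5, 6 and 1 reads in PDGFB tumors, 2, 5, 1, 2 and 2 in RAS tumors, and 3, 4 and 6 in normal brain. The groups overlapped and no comparison was called: the log2 fold changes were 0.16 ± 0.67 for PDGFB tumors against normal brain (adjusted p = 0.947), −0.96 ± 0.74 for RAS tumors against normal brain (adjusted p = 0.366) and 1.11 ± 0.63 for PDGFB against RAS tumors (adjusted p = 0.271). A p above the threshold at 1 to 8 reads a library does not show that the groups are alike.

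Tgfbr2 (ENSMUSG00000032440, chr9:116084293-116175360, minus strand), the type II receptor that binds the ligand first, was highest in RAS tumors. Its reads were 5, 2, 1, 3 and 1 in PDGFB tumors, 7, 9, 9, 13 and 13 in RAS tumors, and 4, 0 and 3 in normal brain. Every RAS tumor had more than every library of the other groups. In the unfiltered fit the log2 fold change was 1.95 ± 0.68 in RAS tumors against normal brain (3.87-fold, adjusted p = 0.0206; 0.175 without normal brain 2 and 0.0501 without normal brain 3). In PDGFB tumors it was −2.10 ± 0.56 against RAS tumors (4.28-fold lower, adjusted p = 0.00272) and −0.15 ± 0.80 against normal brain (adjusted p = 0.972).

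Transducer and inhibitor. Smad3 (ENSMUSG00000032402, chr9:63646767-63757994, minus strand), which carries the receptor signal to the nucleus, was the only one of the 10 genes read in every library at 8 reads or more. It had 15, 10, 9, 11 and 8 reads in PDGFB tumors, 21, 13, 15, 18 and 14 in RAS tumors, and 8, 8 and 13 in normal brain. The means were 17.2 ± 3.99 CPM in PDGFB tumors (SD, n = 5), 26.3 ± 5.39 CPM in RAS tumors (SD, n = 5) and 16.7 ± 4.17 CPM in normal brain (SD, n = 3), and the ranges overlapped. PDGFB tumors were 1.67-fold lower than RAS tumors (log2 fold change −0.74 ± 0.28, adjusted p = 0.0490), a call that 19 of 23 alternatives did not keep, with adjusted p from 0.0268 to 0.279 over all of them. RAS tumors against normal brain gave 0.55 ± 0.33 (adjusted p = 0.169), and PDGFB tumors against normal brain −0.20 ± 0.34 (adjusted p = 0.668).

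Smad7 (ENSMUSG00000025880, chr18:75367529-75395935, plus strand), the feedback inhibitor, had 3, 4, 0, 1 and 3 reads in PDGFB tumors, 3, 8, 2, 6 and 0 in RAS tumors, and 3, 1 and 3 in normal brain. RAS tumors spanned the whole range, from the library with most reads to 1 with none. No comparison was called, with log2 fold changes of −0.27 ± 0.87 for PDGFB tumors against normal brain (adjusted p = 0.899), 0.55 ± 0.82 for RAS tumors against normal brain (adjusted p = 0.671) and −0.83 ± 0.70 for PDGFB against RAS tumors (adjusted p = 0.499).

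Induced gene. Tgfbi (ENSMUSG00000035493, chr13:56609523-56639562, plus strand), the matrix protein that binds collagens and integrins, had 5, 2, 2, 1 and 3 reads in PDGFB tumors, 23, 15, 20, 53 and 39 in RAS tumors, and 1, 0 and 0 in normal brain. Normal brain was nearly empty, PDGFB tumors had a few reads each, and RAS tumors lay above both with no overlap. Tgfbi averaged 48.2 ± 24.1 CPM in RAS tumors (SD, n = 5) and 0.568 ± 0.983 CPM in normal brain (SD, n = 3), a count ratio of 83.8 (interval 14.8 to 3332) and a log2 fold change of 5.90 ± 0.81 (adjusted p = 1.33e-05). PDGFB tumors averaged 4.20 ± 2.35 CPM (SD, n = 5), 12.2-fold lower than RAS tumors (log2 fold change −3.60 ± 0.47, adjusted p = 2.60e-05). Their difference from normal brain, a count ratio of 7.29 (interval 1.09 to 310), was not called (log2 fold change 2.30 ± 1.14, adjusted p = 0.110).

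**Figure D2:**
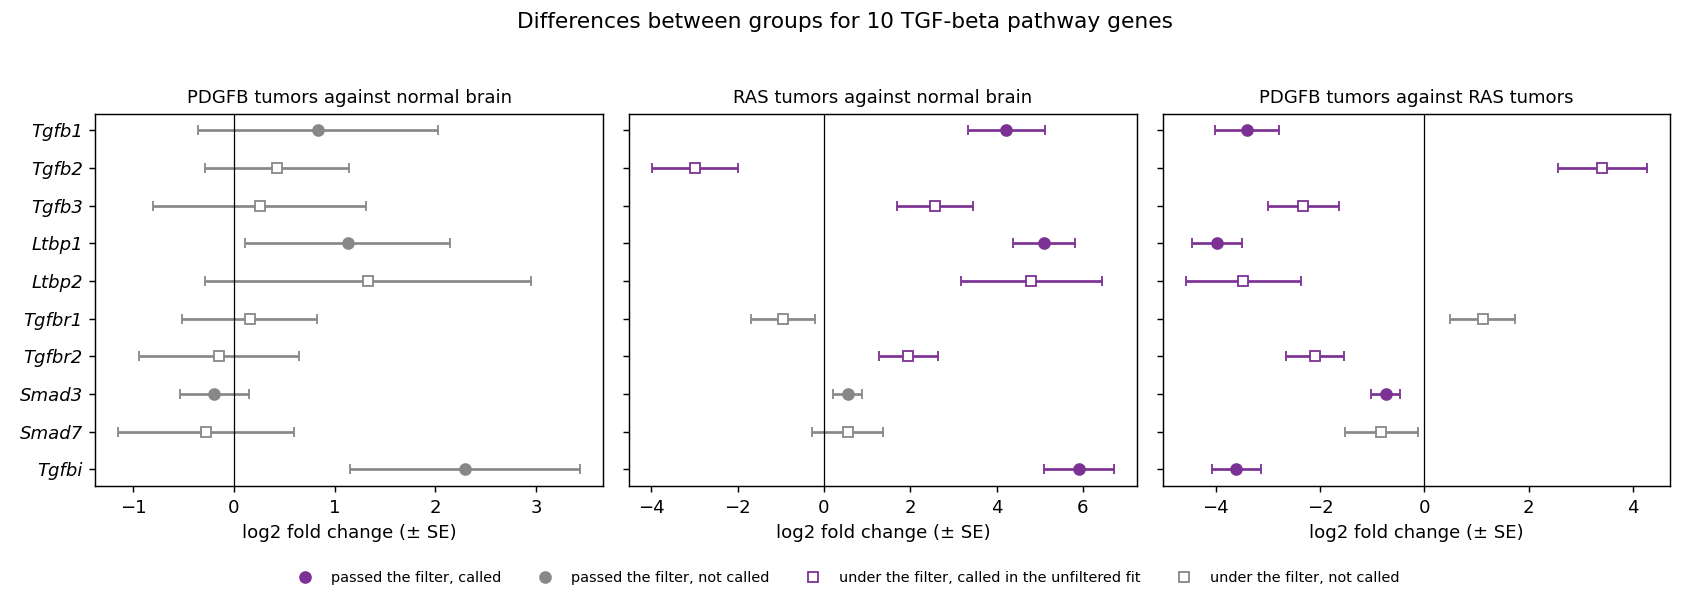
Fitted log2 fold change ± SE (x axis) of each of the 10 genes (y axis) for PDGFB tumors against normal brain, RAS tumors against normal brain and PDGFB tumors against RAS tumors, with a scale of its own per panel; filled circles are genes over the low-count filter, open squares come from the unfiltered fit, and purple marks an adjusted p under 0.05. The Ltbp2 value against normal brain depends on the prior count, since normal brain had no read. No gene is purple in PDGFB tumors against normal brain, and only Tgfb2 lies to the left among the called genes in RAS tumors against normal brain and to the right in PDGFB tumors against RAS tumors.

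Counted over the genes that passed the filter, 0 of 4 were called in PDGFB tumors against normal brain, where 45.3% of all 7722 genes tested were called. In RAS tumors against normal brain 3 of 4 were called, all higher, beside 56.2% of all genes called and 26.9% called higher. In PDGFB tumors against RAS tumors 4 of 4 were called, all lower, beside 32.1% of all genes called and 17.4% called lower. Tgfb1, Ltbp1 and Tgfbi passed the filter through the RAS tumors alone, in which 4, 5 and 5 libraries reached its level of about 16.4 CPM, so a difference was built into their passing and the counts are not support for one. Smad3 reached that level in 3 PDGFB tumors, 5 RAS tumors and 1 normal brain. The libraries of both groups did not overlap for 0 of 4 genes in PDGFB tumors against normal brain, 3 of 4 in RAS tumors against normal brain and 3 of 4 in PDGFB against RAS tumors, where 51.4%, 52.1% and 20.3% of all genes tested did not overlap.

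The unfiltered fit took in all 10 genes. It called none in PDGFB tumors against normal brain, where 18.1% of the 23301 genes were called (8.37% higher, 9.69% lower). In RAS tumors against normal brain it called 6 higher (Tgfb1, Tgfb3, Ltbp1, Ltbp2, Tgfbr2 and Tgfbi) and 1 lower (Tgfb2), beside 11.6% of genes higher and 12.9% lower. In PDGFB tumors against RAS tumors it called 1 higher (Tgfb2) and the same 6 genes lower, beside 6.74% higher and 6.69% lower; these comparisons share the RAS libraries. Of the genes it tested, 8.68% had no overlap between PDGFB and RAS tumors, as had Tgfb1, Ltbp1, Tgfbr2 and Tgfbi among the 10. Between RAS tumors and normal brain 25.4% had no overlap, as had Tgfb1, Tgfb3, Ltbp1, Tgfbr2 and Tgfbi. The median log2 fold change over the 10 genes was 0.34, 2.26 and −2.21 in the 3 comparisons, against 0.03, 0.00 and 0.00 over all 23301 genes; with Ltbp2 at its bound the second median was 1.81. Tgfbr1, Smad3 and Smad7 were called in none of them.

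Levels between genes were set side by side as CPM per kilobase of exon. Tgfb2, Tgfb3 and Ltbp2 face exons of another gene, and the others have no gene opposite. Over all genes, the summed reads per kilobase of exon were 187 where exons face each other and 12.8 where no gene lies opposite. The part of the strand counted in the order below was not tested. In PDGFB tumors Smad3 stood first at 3.11 ± 0.720, followed by Tgfb2 at 1.63 ± 1.22, Tgfbr1 at 1.39 ± 0.706 and Tgfbi at 1.11 ± 0.623 CPM per kb (SD, n = 5), the last 3 within a SD of each other. In RAS tumors Tgfbi led at 12.8 ± 6.40, then Tgfb1 at 5.26 ± 2.53, Smad3 at 4.75 ± 0.974, Ltbp1 at 4.59 ± 0.643 and Tgfb3 at 3.42 ± 1.69 CPM per kb (SD, n = 5); the 4 after Tgfbi did not differ beyond their spread. Tgfbr2 followed at 2.01 ± 0.477 and Smad7 at 1.37 ± 1.15 CPM per kb, and Tgfb2 was last at 0.117 ± 0.262 CPM per kb. Normal brain had Smad3 first at 3.02 ± 0.753, then Tgfbr1 at 1.15 ± 0.368, Tgfb2 at 1.10 ± 0.730 and Smad7 at 0.882 ± 0.402 CPM per kb (SD, n = 3), and Tgfbi, first in RAS tumors, had 0.151 ± 0.261 CPM per kb. In RAS tumors the receptor levels thus stood at 0.596 ± 0.382 CPM per kb for Tgfbr1 and 2.01 ± 0.477 for Tgfbr2, against 1.15 ± 0.368 and 0.479 ± 0.430 in normal brain.

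Macrophage and fibroblast markers were higher in the same libraries, while pericyte and endothelial markers overlapped between the tumors. Of the 13 macrophage and microglia markers, 11 have no gene opposite; their summed level was 100 to 154 CPM in PDGFB tumors, 321 to 579 CPM in RAS tumors and 32.1 to 47.9 CPM in normal brain, and all 11 had a higher mean in RAS tumors than in each other group. Over all 13 the sums were 287 to 372, 570 to 897 and 289 to 310 CPM in PDGFB tumors, RAS tumors and normal brain. By these sums PDGFB tumors overlapped normal brain. P2ry12, which faces exons of another gene, went the other way, with 11, 8 and 19 reads over the same groups. Lyz2, a lysozyme of myeloid cells, had 64, 542 and 6 reads over PDGFB tumors, RAS tumors and normal brain, and Ptprc had none in normal brain. Of the 8 fibroblast and meninges markers, 7 have no gene opposite, and their sum was 14.1 to 62.8 CPM in PDGFB tumors, 107 to 435 CPM in RAS tumors and 11.3 to 16.5 CPM in normal brain, with RAS tumor 5 highest and Lum at 0 in normal brain. All 7 had a higher mean in RAS tumors than in the other groups. Pericyte and smooth muscle markers (5 of 8 with no gene opposite) summed to 31.4 to 58.7 CPM in PDGFB tumors, 30.6 to 77.8 CPM in RAS tumors and 8.52 to 15.1 CPM in normal brain. Of them, Myh11 had no read in either tumor group and Acta2 none in normal brain. Endothelial markers (7 of 8 with no gene opposite) summed to 8.26 to 38.0 CPM in PDGFB tumors, 27.2 to 58.9 CPM in RAS tumors and 11.6 to 17.0 CPM in normal brain. A higher mean than in normal brain was found for 5 of these 7 in PDGFB tumors and 6 in RAS tumors, and Cldn5 had no read in normal brain. The part of these cells in the values of Tgfb1, Tgfb3, Ltbp1, Ltbp2, Tgfbr2 and Tgfbi was not tested. Oligodendrocyte precursor markers (4 with no gene opposite) were highest in PDGFB tumors, at 380 to 491 CPM, against 37.3 to 199 CPM in RAS tumors and 51.2 to 79.4 CPM in normal brain. Neuron markers with no gene opposite (5 of 10) were 42.4 to 226, 4.91 to 268 and 1175 to 1286 CPM in PDGFB tumors, RAS tumors and normal brain. Over all 10 neuron markers the sums were 337 to 744, 4054 to 8522 and 5801 to 6107 CPM in the same groups. Most of the sum in RAS tumors and normal brain was Nefm, which faces exons of another gene and had 844, 15666 and 7160 reads. Tgfb2 and Tgfbr1, lower in RAS tumors by their means, were read beside these lists, and their part was not tested either.

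On the opposite strand, 6 annotated genes overlap 3 of the 10, all shown because their reads cannot be separated by strand from those of the member. Over Tgfb3 lie Gm37804 (a transcript to be experimentally checked, chr12:86069173-86069779, 163 bases of shared exon), Gm48008 (chr12:86078644-86079754, 257 bases of shared exon) and an intron of Ttll5, a tubulin glutamylase (chr12:85824659-86061893). Gm37804 had 16, 51, 24, 32 and 31 reads in PDGFB tumors, 73, 38, 40, 81 and 69 in RAS tumors, and 18, 24 and 28 in normal brain, several times those counted under Tgfb3 itself. The RAS tumors lay above normal brain without overlap (log2 fold change 1.17 ± 0.37, adjusted p = 0.0116; 0.0535 without normal brain 1), and PDGFB tumors were lower than RAS tumors (−1.10 ± 0.30, adjusted p = 0.00984) although PDGFB tumor 2 lay within the RAS range.

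Gm48008 had 16, 25, 15, 11 and 14 reads in PDGFB tumors, 56, 23, 19, 47 and 24 in RAS tumors, and 13, 15 and 20 in normal brain. RAS tumors 1 and 4 were high and the other 3 overlapped the other groups. It was lower in PDGFB than in RAS tumors (−1.19 ± 0.32, adjusted p = 0.00896) and was not called in RAS tumors against normal brain (0.88 ± 0.38, adjusted p = 0.0577). Ttll5 ran the other way from Tgfb3, with 43, 26, 32, 45 and 34 reads in PDGFB tumors, 14, 25, 23, 8 and 15 in RAS tumors, and 33, 21 and 25 in normal brain. It was higher in PDGFB than in RAS tumors (0.94 ± 0.29, adjusted p = 0.0183) and lower in RAS tumors than in normal brain (−0.82 ± 0.33, adjusted p = 0.0433), a call that 17 of 22 alternatives did not keep.

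Over Tgfb2 lie the antisense gene Gm29491 (chr1:186705695-186707033, 124 bases of shared exon, crossing the promoter window shown above) and the small nucleolar RNA gene Gm26169, which had no read. Gm29491 had 6, 22, 6, 6 and 4 reads in PDGFB tumors, 6, 3, 1, 3 and 2 in RAS tumors, and 3, 5 and 4 in normal brain. Only PDGFB tumor 2 stood apart, and PDGFB against RAS tumors was not called in the unfiltered fit (1.45 ± 0.55, adjusted p = 0.0594). D030025P21Rik, antisense to the start of Ltbp2 (chr12:84875769-84879755, 764 bases of shared exon), had 0, 0, 0, 1 and 0 reads in PDGFB tumors, 2, 2, 1, 3 and 16 in RAS tumors, and 0, 0 and 1 in normal brain. As for Ltbp2, RAS tumor 5 held most reads, 16 of 24. In the unfiltered fit the RAS to normal count ratio was 13.4 (interval 2.19 to 552; adjusted p = 0.0237) and PDGFB tumors were lower than RAS tumors (count ratio 23.9 in favour of RAS tumors, interval 3.90 to 983; adjusted p = 0.00151). Without RAS tumor 5, which leaves 8 reads in RAS tumors, both calls were lost (adjusted p = 0.312 and 0.155). The call against normal brain was also lost in DESeq2 (0.0878) and without normal brain 1 (0.115) or 2 (0.104). Of the 3 opposite genes over the filter, 0 were called in PDGFB tumors against normal brain (0 also at an unadjusted p under 0.05 and in DESeq2), 2 in RAS tumors against normal brain and 3 in PDGFB against RAS tumors, where 45.3%, 56.2% and 32.1% of all genes tested were called.

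**Figure D3:**
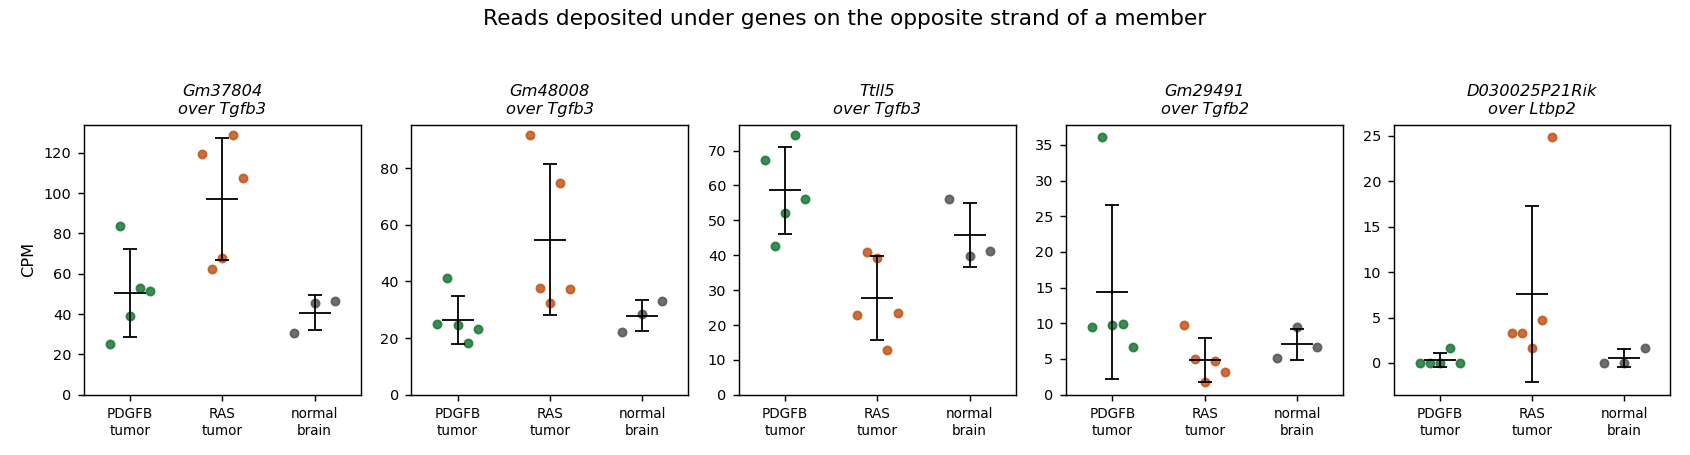
CPM of the 5 genes with reads on the opposite strand of Tgfb3, Tgfb2 or Ltbp2 (y axis, 1 linear scale per panel) in PDGFB tumors, RAS tumors and normal brain (x axis); points are libraries and bars the mean ± SD (n = 5, 5 and 3). Gm37804 lies higher in all RAS tumors than in normal brain, and in D030025P21Rik 1 RAS tumor, at 24.9 CPM, lies far above the others.

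Smad3 had the highest mean CPM over all 13 libraries, 20.6, by a narrow margin over Ltbp1 (20.4) and Tgfbi (20.3), both of which stood above it in RAS tumors. Among 7425 tested genes with a mean of at least 10 CPM, those most like it over the 13 libraries were Frmd4a (Pearson r of log2(CPM + 1) 0.932), Spata1 (0.888) and Rbms1 (0.881). Frmd4a averaged 10.4 CPM in PDGFB tumors, 34.0 CPM in RAS tumors and 10.4 CPM in normal brain. These are descriptions over libraries that share groups and depth; Frmd4a and Spata1 face exons of other genes.

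A further 62 genes of the pathway were listed by role, and 40 of them passed the filter. In PDGFB tumors against normal brain 16 were higher, 1 was lower and 23 were not called, beside 20.2% and 25.1% of all genes tested higher and lower. In RAS tumors against normal brain 26 were higher, 3 lower and 11 not called, beside 26.9% and 29.3%. In PDGFB against RAS tumors 4 were higher, 16 lower and 20 not called, beside 14.6% and 17.4%. Their median log2 fold changes in these comparisons were 1.01, 2.02 and −0.74, against 0.00, 0.02 and 0.03 over all genes tested, and they were the same with 3 genes that normal brain lacked set at their bounds. Of the 40 genes, 15 needed the RAS tumors to reach the filter's level in 3 libraries (Furin, Thbs1, Bgn, Timp1, Postn, Col1a1 and Col1a2 among them) and 10 needed the PDGFB tumors, 4 of them needing both. For genes that needed 1 tumor group a difference was built into their passing, so the counts and medians describe the list without being support for one.

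Of the genes that hold or release the latent ligand, 8 of 13 were tested. In the 3 comparisons 4, 7 and 1 were higher, beside 20.2%, 26.9% and 14.6% of all genes tested. Lower were 0, 0 and 4, beside 25.1%, 29.3% and 17.4%. Furin, Thbs1, Bgn and Fbn1 needed the RAS tumors to pass the filter, and Fbn1, Fbn2 and Itgb8 needed the PDGFB tumors. The counts are thus not support for a difference. Furin, the protease that cleaves the ligand precursor, had 12, 93 and 2 reads over PDGFB tumors, RAS tumors and normal brain and was higher in RAS tumors than in normal brain (count ratio 26.0, interval 6.99 to 218, adjusted p = 7.69e-05) and lower in PDGFB than in RAS tumors (−3.02 ± 0.47, adjusted p = 1.42e-04). Thbs1, a matrix protein that can activate latent TGF-beta, had 12, 133 and 3 reads and the same directions (count ratio 24.8, interval 8.29 to 122, adjusted p = 3.94e-05; −3.54 ± 0.47, adjusted p = 3.01e-05). Both have an exon of a predicted gene opposite. Bgn, a proteoglycan that binds TGF-beta, rose in RAS tumors (3.41 ± 0.76, adjusted p = 0.00104).

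Integrins are a second way to free the ligand. Itgb8, whose product pairs with the alpha-v chain to release TGF-beta and which has no gene opposite, had 109, 24 and 16 reads over PDGFB tumors, RAS tumors and normal brain. It was higher in PDGFB tumors than in RAS tumors (2.02 ± 0.35, adjusted p = 3.83e-04) and than in normal brain (1.68 ± 0.42, adjusted p = 0.00353), while RAS tumors against normal brain gave −0.34 ± 0.48 (adjusted p = 0.572). Itgav, the alpha-v chain, was higher than in normal brain in PDGFB tumors (2.03 ± 0.33, adjusted p = 1.06e-04) and in RAS tumors (1.70 ± 0.33, adjusted p = 3.30e-04). The fibrillins Fbn1 and Fbn2, which anchor LTBPs, were higher in PDGFB tumors than in normal brain, with count ratios of 7.48 (interval 2.38 to 37.8, adjusted p = 0.0446) and 22.4 (interval 6.01 to 188, adjusted p = 1.10e-04). Both were also higher in RAS tumors than in normal brain, with count ratios of 8.75 (interval 2.82 to 44, adjusted p = 0.0166) and 10.9 (interval 2.82 to 93, adjusted p = 0.00113). Neither was called between the tumors (adjusted p = 0.658 and 0.0613). Itgav and both fibrillins face exons of predicted genes, so their reads may belong to either gene.

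Of the other ligands 1 of 5 was tested, Gdf11, a relative that signals through activin receptors; it was higher in RAS tumors than in normal brain (1.76 ± 0.67, adjusted p = 0.0337). Receptors and co-receptors had 3 of 6 tested. Eng, a co-receptor of endothelial cells, was higher than in normal brain in PDGFB tumors (1.84 ± 0.63, adjusted p = 0.0235) and RAS tumors (2.56 ± 0.61, adjusted p = 0.00172). The endothelial marker sums given above were also highest in RAS tumors by their median (32.9, 35.0 and 15.1 CPM in PDGFB tumors, RAS tumors and normal brain), and their part was not tested. Acvr1b, an activin type I receptor, had fewer reads per library size in PDGFB tumors than in normal brain (−1.58 ± 0.58, adjusted p = 0.0330). Acvr2a, an activin type II receptor, was lower in RAS tumors than in normal brain (−0.76 ± 0.23, adjusted p = 0.00951) and higher in PDGFB than in RAS tumors (0.64 ± 0.20, adjusted p = 0.0233). Eng faces exons of Fpgs and Acvr2a those of Orc4, whose reads cannot be told apart from theirs. None of the 3 further transducers over the filter was called by edgeR in any comparison (1, 0 and 0 at an unadjusted p under 0.05). Tgfb1i1, a transducer under the filter, had 6, 43 and 1 reads over PDGFB tumors, RAS tumors and normal brain. The unfiltered fit called it higher in RAS tumors than in normal brain (count ratio 24.0, interval 4.09 to 971, adjusted p = 4.03e-04). In that fit it was lower in PDGFB than in RAS tumors (−2.77 ± 0.67, adjusted p = 7.15e-04). DESeq2 also called Tgfb1i1 in both comparisons, and Smad2, the other transducer under the filter, was called in none. Smad4, the shared partner of the receptor Smads, had 47, 46 and 22 reads over the same groups.

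Of the genes listed as inhibitors, other than Smad7, 7 of 11 were tested. In RAS tumors against normal brain 2 were higher and 2 lower, a split near that over all genes tested (26.9% higher, 29.3% lower). Tgif1, under the filter, had 14, 57 and 1 reads over PDGFB tumors, RAS tumors and normal brain. The unfiltered fit called it higher in RAS tumors than in normal brain (count ratio 31.85, interval 5.49 to 1280, adjusted p = 1.78e-05). It was lower in PDGFB than in RAS tumors (−2.02 ± 0.54, adjusted p = 0.00273). Smad6, Skil and Bambi, also under the filter, were called in none. Pmepa1, an induced membrane protein that sequesters receptor Smads, had 75, 186 and 17 reads over PDGFB tumors, RAS tumors and normal brain (2.49 ± 0.51 in RAS tumors against normal brain, adjusted p = 5.34e-04; −1.44 ± 0.37 in PDGFB against RAS tumors, adjusted p = 0.00688). Smurf1, a ubiquitin ligase that acts with Smad7 on the receptors, moved the same way (1.64 ± 0.43, adjusted p = 0.00334; −0.97 ± 0.32, adjusted p = 0.0280). Tgfbrap1 encodes a receptor-associated protein whose place among the inhibitors is uncertain, and it faces exons of other genes. It was lower in RAS tumors than in normal brain (−1.72 ± 0.64, adjusted p = 0.0289). Ppm1a, a phosphatase of Smad2 and Smad3, lay just inside the threshold there (−0.60 ± 0.25, adjusted p = 0.0496).

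Of 22 genes known to be induced by TGF-beta in other cells 18 were tested. In the 3 comparisons 11, 15 and 1 were higher, beside 20.2%, 26.9% and 14.6% of all genes tested. Lower were 0, 0 and 10, beside 25.1%, 29.3% and 17.4%. Timp1, Ccn1, Postn, Col1a1 and Col1a2, named below, needed the RAS tumors to pass the filter, so these counts are not support for a difference either. Timp1, an inhibitor of matrix proteases, had 19, 491 and 0 reads over PDGFB tumors, RAS tumors and normal brain, at least 91.5-fold higher in RAS tumors than in normal brain (adjusted p = 1.44e-06) and lower in PDGFB than in RAS tumors (−4.78 ± 0.45, adjusted p = 2.44e-06). Ccn1, a matricellular protein, had no read in normal brain and was at least 5.80-fold higher in PDGFB tumors (adjusted p = 0.00239) and at least 9.31-fold higher in RAS tumors (adjusted p = 2.90e-04). Postn, a relative of Tgfbi in the matrix, was at least 10.99-fold higher in RAS tumors than in normal brain (adjusted p = 8.34e-04). Col1a1 and Col1a2, the chains of type I collagen, were lower in PDGFB than in RAS tumors (−3.44 ± 0.80, adjusted p = 0.00347, and −3.92 ± 0.58, adjusted p = 8.77e-05) and are also on the fibroblast list, whose sum was highest in RAS tumors.

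**Figure D4:**
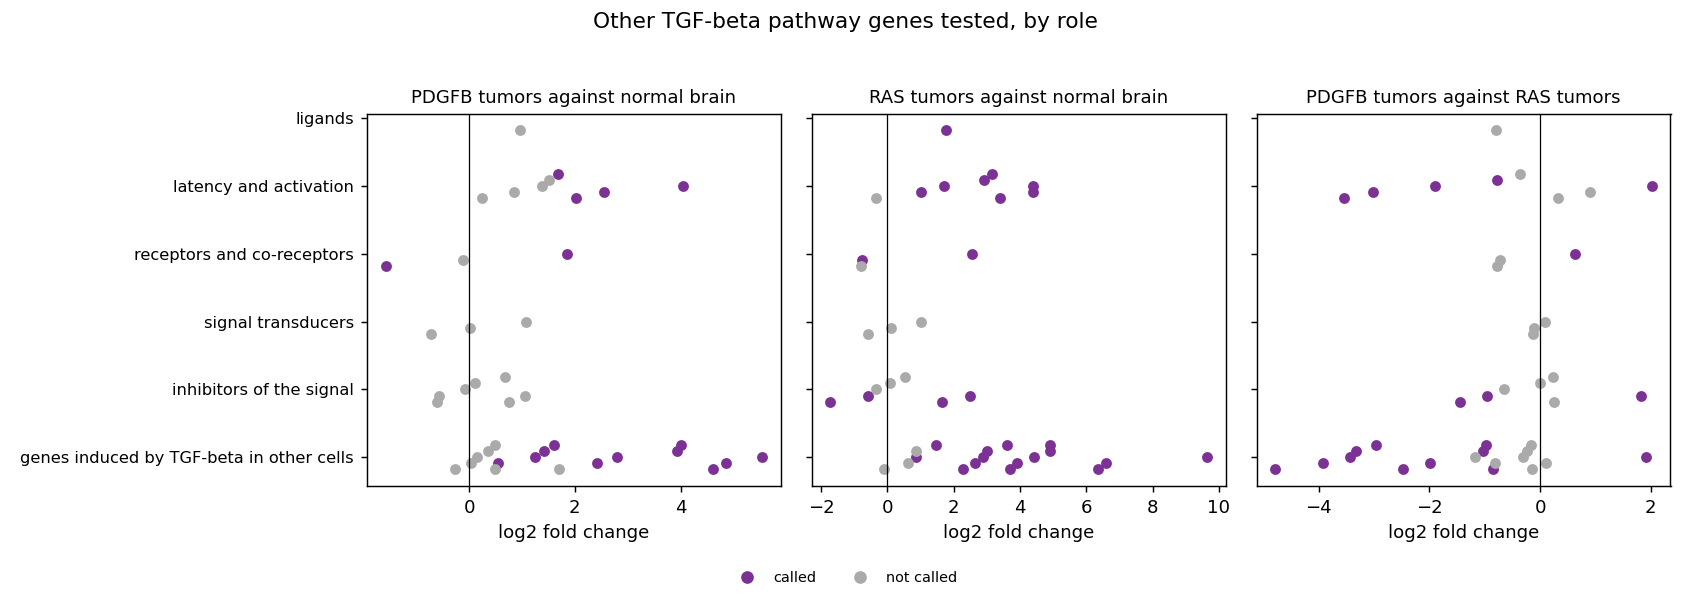
Fitted log2 fold change (x axis) of the 40 other pathway genes that passed the filter, by role (y axis), for PDGFB tumors against normal brain, RAS tumors against normal brain and PDGFB tumors against RAS tumors; each point is a gene, purple where the adjusted p is under 0.05, and the heights within a role only keep points apart. In RAS tumors against normal brain 26 points are purple on the right and 3 on the left.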

How the data were processed

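The authors deposited raw counts, whole reads per Ensembl gene and library. fastp 0.22.0, STAR 2.7.9a and the build GRCm38 are credited to the submitters' processing notes; the gene annotation and strand setting of the count are not given in the sources used here. Per the labels' protocols, Trizol RNA was made into libraries with Illumina's TruSeq RNA kit. Summary lines for reads in no gene (84.5% to 87.3% of a library), unmapped, multimapping and ambiguous reads were left out of library sizes. Groups came from the titles and, for all 3 normal samples, the tissue label, since the title of normal brain 3 begins with other letters. Symbols, positions and overlaps on the other strand came from GENCODE M21, which held 52135 of the identifiers; the other 3281 are not named. The members and gene lists were chosen with earlier results of these data known.

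Counts were tested with edgeR 4.0.16 (R 4.3.3): filterByExpr (minimum count 10, total 15), TMM factors, and 1 quasi-likelihood fit of all 13 libraries with a coefficient per group. All tests were two-sided, and calls needed an adjusted p (Benjamini-Hochberg) below 0.05 over all genes tested (7722, or 23301 without the filter). The steps were tested on simulated data. CPM used gene reads. Where a group had 1 to 3 reads the ratio of summed counts, each divided by the gene reads of its group, is given with a 95% counting interval, and against 0 reads a lower bound from 3 reads over the group; fitted values there depend on the prior count. Intervals cover counting error only. Separate mice are stated for the tumors alone, so p-values involving normal brain may measure technical spread. Named beside the 10 genes are those opposite them, up to 3 called genes per role and comparison with the largest change (or the most abundant), and the 3 genes most like the member with the highest mean CPM. The further transducers and inhibitors under the filter (Smad2, Tgfb1i1, Tgif1, Smad6, Skil and Bambi) were named in addition. Alternatives were other scalings, filters, DESeq2 1.42.0, limma-voom (limma 3.58.1), fits of only the compared groups, a threshold of 0.01, the replicate number as a block and leaving out each library; leaving out RAS tumors 2 and 5 together was added after seeing the data.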

Additional observations from a re-analysis of the deposited data

Results flagged for a closer look

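Within each tumor group, the highest and the lowest library of each member and opposite gene were compared with the nearest other library by Dixon's criterion at the 95% level. It marked 8 of the 30 groups examined, where chance marks about 1 group in 20; at a few reads per library the values move in steps of 1 read, so several marks rest on 1 or 2 reads. Tgfb2 was 3.40 CPM (2 reads) in RAS tumor 3 and 0 in the other RAS tumors. Tgfb3 was 6.57 CPM in PDGFB tumor 2, against 0 to 1.65 CPM in the other PDGFB tumors. In the same tumor Gm29491, opposite Tgfb2, was 36.1 CPM, against 6.62 to 9.91 CPM in the others, and Ltbp2 was 1.64 CPM (1 read), against 0. Tgfbr1 was 8.21 CPM in RAS tumor 2, against 1.70 to 3.27 CPM in the other RAS tumors. RAS tumor 5 had 17.1 CPM of Ltbp2, against 0 to 4.77 CPM, and 24.9 CPM of the opposite gene D030025P21Rik, against 1.70 to 4.77 CPM. D030025P21Rik also had its 1 read of the PDGFB tumors in PDGFB tumor 4, at 1.65 CPM.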

How the results depend on the processing

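The calls of Tgfb1, Ltbp1 and Tgfbi in RAS tumors against normal brain and in PDGFB against RAS tumors kept their direction and their side of the threshold in every alternative that gave them a value (21 to 23 each, with RAS tumor 2 left out among them), with adjusted p no higher than 0.00469. The 3 members called in RAS tumors against normal brain became 6 in DESeq2 and 7 without a filter or with the looser one; the 4 called in PDGFB against RAS tumors became 6 in DESeq2, 7 and 7 in the fits with no or a looser filter, and 2 with the compared groups alone, where Tgfb1 did not pass the filter and Smad3 had an adjusted p of 0.0549. The replicate number as a block also gave 2; numbers did not pair the tumors (correlations of same-numbered libraries −0.128 to 0.139). Leaving out each library gave 3 to 4, 0 to 0 and 3 to 4 members for PDGFB against RAS tumors, PDGFB tumors against normal brain and RAS tumors against normal brain. For the 6 members under the filter the ranges were 3 to 4, 0 to 0 and 0 to 4, and in RAS tumors against normal brain the 4 became 2 without RAS tumors 2 and 5 and 0 at an adjusted p under 0.01. Opposite genes called were 3 to 3, 0 to 0 and 0 to 3, and in RAS tumors against normal brain the 2 became 1 with the compared groups alone, 1 in DESeq2 and 0 at an adjusted p under 0.01. The direction turned only in PDGFB tumors against normal brain, where no member was called. With limma-voom the log2 fold change became −0.045 for Tgfbr1, 0.14 for Tgfbr2 and −0.018 for Gm37804, and with library totals, which moved the median of all genes by 0.23, 0.035 for Smad3. Leaving out 1 library gave −0.028 to 0.89 for Tgfb2, −0.53 to 1.09 for Tgfb3, −0.073 to 0.39 for Tgfbr1, −0.70 to 0.42 for Tgfbr2, −0.33 to 0.11 for Smad3, −1.97 to 1.33 for D030025P21Rik and −0.18 to 0.25 for Gm37804. The cause of these changes was not tested.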
